A study of Mus musculus with 6 samples.

Results

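The miR-106a-363 cluster is a group of microRNA (miRNA) hairpins on the mouse X chromosome. Its products were followed here in nephron progenitor cells between the embryonic stage E14.5 and the day of birth (P0). The members are the 5 mature miRNAs of the deposited table that come from this cluster alone, chosen by name: mmu-miR-106a-5p, mmu-miR-18b-5p, mmu-miR-20b-5p, mmu-miR-20b-3p and mmu-miR-363-3p, of 1034 mature miRNAs in all. Nephron progenitors are the self-renewing cells of the kidney cortex from which all nephrons form, and in mice they are used up soon after birth. Both groups were CD1 mice with no treatment or engineered allele given in the labels, and each sample was a pool of kidneys from 1 litter, with 3 samples at E14.5 and 3 at P0. Cells released by a short enzyme digestion were captured on beads through the surface integrin Itga8, so a pool can hold other cells that carried this integrin or were carried along. No miRNA was taken as a defining marker of nephron progenitors, so the labelled cell type could not be checked on these data.

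A miRNA is cut from 1 arm of an RNA hairpin, loaded into an Argonaute protein, and represses messenger RNAs that pair with its seed, bases 2 to 8 from its 5′ end. The miR-106a-363 cluster is 1 of 3 related clusters in mammals, together with miR-17-92 on mouse chromosome 14 and miR-106b-25 on chromosome 5. Members that share a seed can act on many of the same messenger RNAs. The best known of the 3, miR-17-92, promotes proliferation and survival, its targets include the cell death factor Bim, and its loss from nephron progenitors reduces their proliferation and the number of nephrons.

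The sequences are shown because the members fall into 3 seed groups and lie very close to their relatives on the other chromosomes, which bears on how their reads are counted. All 5 members matched RefSeq entries (build GRCm38.p6) at the positions of the deposited table, on the minus strand of chromosome X. Capitals mark the seed. The first group has the seed of miR-17, and its 2 members on chromosome X are given with the relatives miR-17-5p and miR-20a-5p.
miR-106a-5p: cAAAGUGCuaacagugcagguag
miR-17-5p: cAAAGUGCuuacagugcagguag
miR-20b-5p: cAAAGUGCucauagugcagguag
miR-20a-5p: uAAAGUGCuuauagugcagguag
The second group has the seed of miR-18.
miR-18b-5p: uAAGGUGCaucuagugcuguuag
miR-18a-5p: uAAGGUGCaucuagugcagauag
The third group has the seed of miR-92, which miR-25 and miR-32 also carry.
miR-363-3p: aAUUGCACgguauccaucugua
miR-92a-3p: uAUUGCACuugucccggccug
The last member, miR-20b-3p, is the opposite arm of the Mir20b hairpin, and its seed is none of these 3.
miR-20b-3p: aCUGCAGUgugagcacuucuag

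Counted from the 5′ end of the first name, miR-17-5p and miR-106a-5p differ by 1 base (U10A). miR-18a-5p and miR-18b-5p differ by 2 bases (A18U and A20U). miR-20a-5p and miR-20b-5p differ by 2 bases (U1C and U10C). Within the cluster, miR-106a-5p and miR-20b-5p also differ by 2 bases (A10C and C12U). The seeds of these pairs are the same, and the differences lie outside them. miR-92a-3p and miR-363-3p share the seed but differ at 11 of the 21 positions compared without gaps. Since the far more abundant relative of a member can be 1 base away, the division of reads between such names depends on the authors' mapping and is uncertain.

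The 6 hairpins of the cluster lie on the X chromosome within 875 bases (52741693 to 52742567, minus strand). In transcript order they are Mir106a, Mir18b, Mir20b, Mir19b-2, Mir92-2 and Mir363. In GENCODE release M21 (build GRCm38) the noncoding transcript Kis2 ends at the first base of miR-106a-5p and overlaps it by 1 base. The other members lie in no annotated gene but their own hairpins, and the nearest protein-coding gene downstream, Gpc3, is 127742 bases away. miR-106a-5p is at 52742541 to 52742563 and miR-18b-5p at 52742381 to 52742403. miR-20b-5p is at 52742159 to 52742181 and miR-20b-3p at 52742122 to 52742143. miR-363-3p is at 52741697 to 52741718.

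Values are TPM as deposited, which are reads divided by the end minus the start of the mature miRNA (1 base less than its length) and scaled to the same total in every library. Levels are therefore per length, but whether different miRNAs were captured equally was not tested. Depth ranged from 2649506 to 34934526 recovered reads per library, and E14.5 replicates 1 and 3 were the shallowest at 2649506 and 5128723. P0 replicate 1 stood apart from its group. Across 670 miRNAs, its mean correlation with the E14.5 libraries was 0.948 and with the other P0 libraries 0.908, so the calls of the members are also given without it. Over all tested miRNAs the log2 fold change, P0 over E14.5, had a median of −1.20 in TPM and of −0.17 once libraries were scaled by the median of ratios, which sets a miRNA of typical behaviour near 0. A member's change is therefore given on both scales. No sequencing batch or date was in the labels.

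The members were lower at P0 than at E14.5. Summed over the 4 members above the abundance filter, the cluster had 574.6 ± 145.5 TPM at E14.5 and fell to 45.8 ± 8.82 TPM by P0 (SD, n = 3), a ratio of the means of 12.6. The E14.5 replicates 1 to 3 had sums of 728, 438 and 558 TPM. The P0 replicates 1 to 3 had sums of 55.6, 38.4 and 43.3 TPM. The stages did not overlap, and the lowest E14.5 library was well above the highest P0 library. In bulk samples such as these, fewer cells with a miRNA and less of it per cell cannot be told apart.

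**Figure D1:**
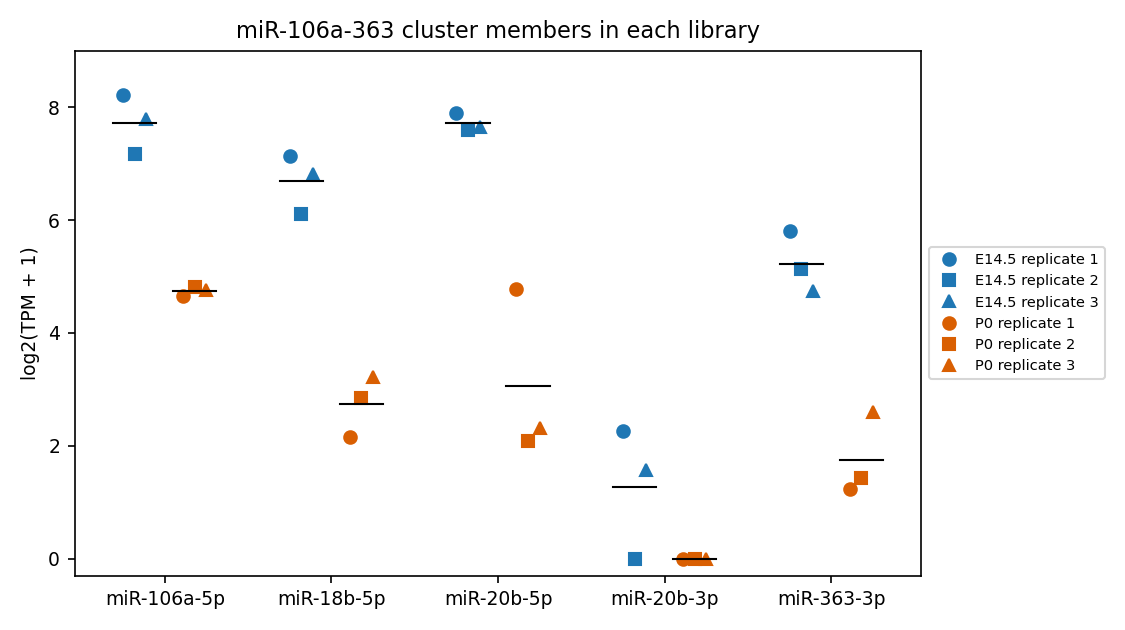
Level of each of the 5 members, as log2(TPM + 1) on the vertical axis, in the 3 E14.5 libraries (blue) and the 3 P0 libraries (orange), with marker shape for the replicate and a black bar for the mean of the log values. For miR-106a-5p, miR-18b-5p, miR-20b-5p and miR-363-3p every P0 library lies below every E14.5 library, and miR-20b-5p in P0 replicate 1 lies above the other P0 libraries.

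Of the 5 members, 4 had a mean of at least 1 TPM and were tested, and all 4 were called lower at P0 at an adjusted p-value under 0.05. Over all miRNAs tested, 32.8% were called lower in the same fit. After median-of-ratios scaling 3 of the 4 were called lower, against 5.22% of all miRNAs. With the replicate number as a block in TPM all 4 were called lower, against 35.1% of all miRNAs. The TPM values of the stages did not overlap for any of the 4, which also held for 46.4% of all miRNAs in the direction lower at P0. All 4 had a negative log2 fold change in each of the 23 fits made. These fits reuse the same 6 libraries, and in TPM the sign follows from the lack of overlap, so this count adds no support. Over all 670 miRNAs the median was −1.20 in TPM and −0.17 after scaling. The median log2 fold change of the 4 was −3.71 in TPM and −2.55 after scaling. That median leaves out miR-20b-3p, which did not pass the filter.

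miR-106a-5p, a seed sister of miR-17-5p and the first hairpin of the transcript, had 297, 143 and 221 TPM in the E14.5 replicates, in the order 1 to 3. The P0 replicates, in the same order, had 24.3, 27.3 and 26.1 TPM. The P0 libraries were close to each other and far below the lowest E14.5 library. The mean fell from 220.0 ± 76.9 to 25.9 ± 1.52 TPM (SD, n = 3). In the limma fit its log2 fold change was −2.98 with an SE of 0.55 and an adjusted p of 0.00435. That is −1.78 relative to the median of all miRNAs. Scaled by the median of ratios it was −1.72 (SE 0.50) with a limma adjusted p of 0.0554, which did not pass the threshold. It ranked 64th of 670 from the largest fall in TPM, the mildest change of the 4.

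miR-18b-5p, which carries the miR-18 seed, stood at 139, 67.8 and 112 TPM in the 3 E14.5 replicates. In the P0 replicates it stood at 3.49, 6.23 and 8.26 TPM. P0 replicate 1 was the lowest library of all, as it was for miR-106a-5p and miR-363-3p. The mean fell from 106.3 ± 35.9 to 5.99 ± 2.40 TPM (SD, n = 3). Its log2 fold change in TPM was −3.94 with an SE of 0.59 (adjusted p = 0.00332, limma). Scaled by the median of ratios it was −2.73 with an SE of 0.60 (adjusted p = 0.0309, limma). Its P0 values rest on 127, 145 and 186 reads.

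miR-20b-5p, the second member with the miR-17 seed, was even across the E14.5 replicates, at 237, 194 and 199 TPM. The P0 replicates held 26.5, 3.22 and 3.95 TPM. P0 replicate 1 was several times above the other P0 libraries and still far below every E14.5 library. The mean fell from 209.9 ± 23.7 to 11.2 ± 13.2 TPM (SD, n = 3). Its log2 fold change in TPM was −4.66 with an SE of 0.72 (adjusted p = 0.00332, limma), the third largest fall of the 670 tested, and −3.46 relative to their median. Scaled by the median of ratios it was −3.48 with an SE of 0.63 (adjusted p = 0.0273, limma). Leaving out P0 replicate 1 gave −5.52 in TPM with an SE of 0.39 (adjusted p = 2.63e-06, limma).

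miR-363-3p, the last hairpin of the transcript and the member with the miR-92 seed, had the lowest mean of the 4 at each stage. The E14.5 replicates gave 55.3, 34.0 and 25.8 TPM. The P0 replicates gave 1.35, 1.71 and 5.03 TPM, which rest on 47, 38 and 108 reads. The exact 95% Poisson interval reached 6.07 TPM in the highest P0 library and started at 21.6 TPM in the lowest E14.5 library. These intervals leave out the spread between pools. The mean fell from 38.4 ± 15.2 to 2.70 ± 2.03 TPM (SD, n = 3). Its log2 fold change in TPM was −3.48 with an SE of 0.62 (adjusted p = 0.0040, limma). Scaled by the median of ratios it was −2.36 with an SE of 0.66 (adjusted p = 0.0460, limma). That call was close to the threshold. It was lost with upper-quartile scaling (−2.35, limma adjusted p = 0.0509) and with the replicate block on the scaled values (−2.36, limma adjusted p = 0.0788). With limma-voom it was lost too, at a log2 fold change of −2.90 with an SE of 0.76 (adjusted p = 0.0607).

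miR-20b-3p, the passenger arm of the Mir20b hairpin, was rare. The hairpin is shown with both mature arms in capitals, since it is the one cluster hairpin with both arms among the members.
Mir20b: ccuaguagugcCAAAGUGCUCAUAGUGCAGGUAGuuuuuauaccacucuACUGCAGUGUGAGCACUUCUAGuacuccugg
The 3p arm had 10, 0 and 10 reads in the E14.5 replicates, or 3.79, 0 and 1.96 TPM, and 0 reads in each P0 library. In the libraries with 0 reads a level of up to 0.127 TPM in E14.5 replicate 2 and of up to 0.0863, 0.135 and 0.140 TPM in the P0 replicates cannot be told from 0 (3 reads, counting error only). The stages overlapped at 0, because the deepest E14.5 library held no read of it. It was left out of the test by the abundance filter. With no filter its log2 fold change was −1.27 with a limma adjusted p of 0.0718, which did not pass. The 5p arm took 98.5% of the reads of the 2 arms in E14.5 replicate 1 (95% Wilson interval 97.3 to 99.2) and 99.1% in replicate 3 (98.3 to 99.5), and 100% in the other libraries. The log2 ratio of 5p to 3p in TPM + 1 was 6.44 ± 1.03 for E14.5 and 3.06 ± 1.498 for P0 (SD, n = 3, exact two-sided permutation p = 0.1). With the 3p arm at 0, that P0 ratio follows the level of the 5p arm alone, so it shows no change in arm use. With a pseudocount of 0.1 TPM the difference between the stages moved from −3.38 to −1.67 (exact permutation p = 0.5).

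The scale decided how far the calls held when a library was left out. In TPM all 4 members were called in each of the 6 fits with 1 library left out. Those fits called from 65 (without E14.5 replicate 3) to 358 (without P0 replicate 1) of the 670 miRNAs lower. With median-of-ratios scaling all 4 were called by limma without P0 replicate 1, and 0 were called without any other single library. In those latter fits all 4 had an unadjusted limma p under 0.05, as did 136 to 198 of the 670 miRNAs. The calls over the whole table moved in the same way, with 177 of 670 lower without P0 replicate 1 and 0 to 4 lower without any other library. limma-voom on the recovered reads of all 6 libraries called 2 members lower, miR-18b-5p and miR-20b-5p, of 11 among the 670.

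**Figure D2:**
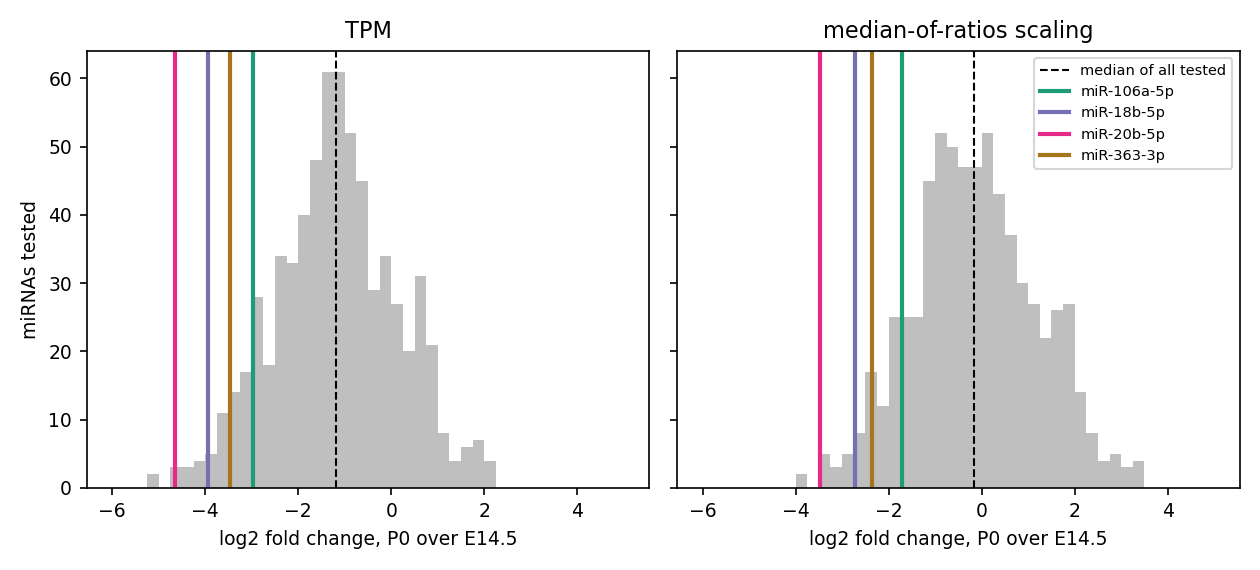
Histograms of the log2 fold change, P0 over E14.5, of the 670 miRNAs tested, in TPM (left) and after median-of-ratios scaling (right), with the number of miRNAs on the vertical axis. The dashed line is the median of all tested, −1.20 in TPM and −0.17 after scaling, and the coloured lines are the 4 tested members, all to the left of it in both panels.

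The direction of the authors' deposited table was itself read from the TPM values, so its signs are no independent evidence. Its log2 fold changes were −1.52 (SE 0.62) for miR-106a-5p, −2.44 (SE 0.68) for miR-18b-5p and −2.29 (SE 0.92) for miR-363-3p in the authors' deposited table. For miR-20b-5p the authors' deposited table gave −3.81 (SE 0.67), and for miR-20b-3p −2.43 with an SE of 3.56. At an adjusted p under 0.05 the authors' deposited table called miR-18b-5p (0.00537) and miR-20b-5p (2.09e-06), but not miR-106a-5p (0.0756), miR-363-3p (0.0703) or miR-20b-3p (1). Of the rows there, 5.16% were called lower at P0.

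The order of the members' levels was compared within each stage. At E14.5 miR-106a-5p and miR-20b-5p had the highest levels and did not differ beyond their spread, miR-106a-5p being higher in replicates 1 and 3 and miR-20b-5p in replicate 2. miR-18b-5p followed, below both of these in every E14.5 library. miR-363-3p came next, below miR-18b-5p in every library of both stages, and miR-20b-3p was last. At P0 miR-106a-5p was above miR-18b-5p in all 3 libraries, while the place of miR-20b-5p changed from the highest in replicate 1 to below miR-18b-5p in replicates 2 and 3. In P0 replicate 3 miR-20b-5p was also below miR-363-3p, at 3.95 against 5.03 TPM.

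The make-up of the cluster therefore changed from library to library. miR-20b-5p made up 32.6%, 44.2% and 35.7% of the 4 members' summed TPM in the E14.5 replicates, and 47.6%, 8.38% and 9.13% in the P0 replicates. miR-106a-5p made up 40.8%, 32.6% and 39.5% at E14.5 and 43.7%, 71.0% and 60.2% at P0. P0 replicate 1 was thus close to the E14.5 libraries in the balance of these miR-17 seed members, although the summed level of the cluster there was that of the P0 group. That library had the lowest percents of miR-18b-5p and miR-363-3p. miR-18b-5p took 6.27% of the sum there, against 15.5% to 20.1% at E14.5 and 16.2% and 19.1% in the other P0 libraries. miR-363-3p took 2.43% there, against 4.63% to 7.77% at E14.5 and 4.45% and 11.6% in the other P0 libraries.

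The balance of the miR-17 seed members was also followed in miR-17-92. The ratio of miR-20b-5p to miR-106a-5p was 0.799, 1.36 and 0.903 in the E14.5 replicates, then 1.09, 0.118 and 0.152 in those of P0. The ratio of miR-20a-5p to miR-17-5p on chromosome 14 was 0.923, 1.09 and 0.762 at E14.5, then 1.63, 0.129 and 0.122 at P0. Both ratios were low in P0 replicates 2 and 3 alone. The ratio of miR-18b-5p to miR-106a-5p was 0.468, 0.475 and 0.509 at E14.5, then 0.144, 0.228 and 0.317. That of miR-18a-5p to miR-17-5p was 0.291, 0.254 and 0.257 at E14.5, then 0.147, 0.0581 and 0.0616. Both were lower in every P0 library than in every E14.5 library, but P0 replicate 1 was the lowest P0 library in the one and the highest in the other. The ratio of miR-363-3p to miR-106a-5p was 0.186, 0.238 and 0.117 at E14.5, then 0.0557, 0.0627 and 0.193, while that of miR-92a-3p to miR-17-5p was 0.301, 1.29 and 0.357, then 1.37, 0.971 and 1.06. These ratios were chosen after their values were seen and are given without a test.

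**Figure D3:**
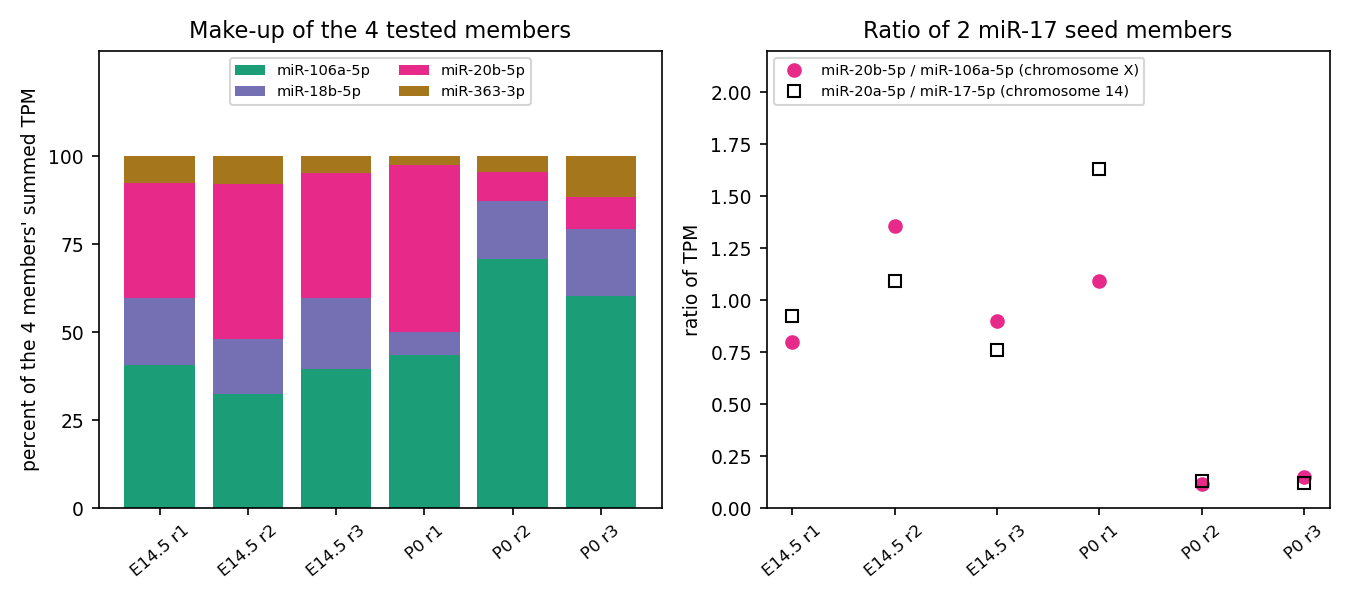
Left, the percent of the 4 tested members' summed TPM taken by each member in each library. Right, the ratio of TPM of miR-20b-5p to miR-106a-5p (chromosome X, filled circles) and of miR-20a-5p to miR-17-5p (chromosome 14, open squares) in each library, where r is the replicate, with both ratios between 0.118 and 0.152 in P0 replicates 2 and 3 and above 0.7 in the other libraries.

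Each of the 4 was then set against a relative with the same seed that miR-17-92 gives rise to, as a ratio inside each library, in which the scaling between libraries cancels except in the added 1 TPM. The 4 pairs and the arm ratio were 5 comparisons, and 3 libraries against 3 cannot give an exact two-sided p below 0.1. miR-106a-5p was at 2.22%, 2.21% and 1.80% of miR-17-5p in the E14.5 replicates and 1.09%, 0.839% and 0.941% of it in the P0 replicates. The stages did not overlap, and the log2 ratio in TPM + 1 was −5.59 ± 0.17 for E14.5 and −6.66 ± 0.19 for P0 (SD, n = 3, exact permutation p = 0.1, Benjamini-Hochberg adjusted 0.125). miR-17-5p itself was called lower in TPM, with a log2 fold change of −1.91 and an SE of 0.47 (adjusted p = 0.0101, limma), but not when scaled by the median of ratios (−0.62, limma adjusted p = 0.382).

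The stages were apart in the same direction for miR-20b-5p against miR-20a-5p. The member stood at 1.92%, 2.73% and 2.13% of its relative in the E14.5 replicates, against 0.729%, 0.767% and 1.17% in the P0 replicates. The high level of miR-20b-5p in P0 replicate 1 thus came with a high level of miR-20a-5p, at 3628 TPM against 420 and 337 in the other P0 libraries. These names differ by 2 bases, and how the authors' mapping divided reads between them was not tested. The log2 ratio was −5.48 ± 0.26 for E14.5 and −6.59 ± 0.48 for P0 (SD, n = 3, exact permutation p = 0.1, adjusted 0.125). Without P0 replicate 1 the difference moved from −1.12 to −0.89.

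miR-363-3p against miR-92a-3p had the widest gap of the 4 pairs. miR-92a-3p is made from a hairpin of each cluster, so its reads cannot be assigned to miR-17-92 alone. The E14.5 replicates held it at 1.37%, 0.408% and 0.591% of miR-92a-3p, the P0 replicates at 0.0442%, 0.0542% and 0.171%. The log2 ratio was −7.14 ± 0.89 for E14.5 and −9.82 ± 0.78 for P0 (SD, n = 3, exact permutation p = 0.1, adjusted 0.125). miR-92a-3p had 5579 ± 2394 TPM at E14.5 against 3050 ± 111 TPM (SD, n = 3), and its log2 fold change of −0.79 had a limma adjusted p of 0.186.

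miR-18b-5p against miR-18a-5p was the pair that did not separate the stages. Its percent of miR-18a-5p was 3.56, 4.13 and 3.57 in the E14.5 replicates and ran through 1.07, 3.30 and 4.84 in the P0 replicates. The P0 libraries lay on both sides of the E14.5 libraries, and the log2 ratio was −4.72 ± 0.13 for E14.5 and −5.04 ± 1.03 for P0 (SD, n = 3, exact permutation p = 0.9). Without P0 replicate 1 the difference turned from −0.31 to 0.26. miR-18a-5p was called lower at P0, at −3.63 on the log2 scale with an SE of 0.54 (adjusted p = 0.00332, limma), next to the −3.94 of miR-18b-5p.

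**Figure D4:**
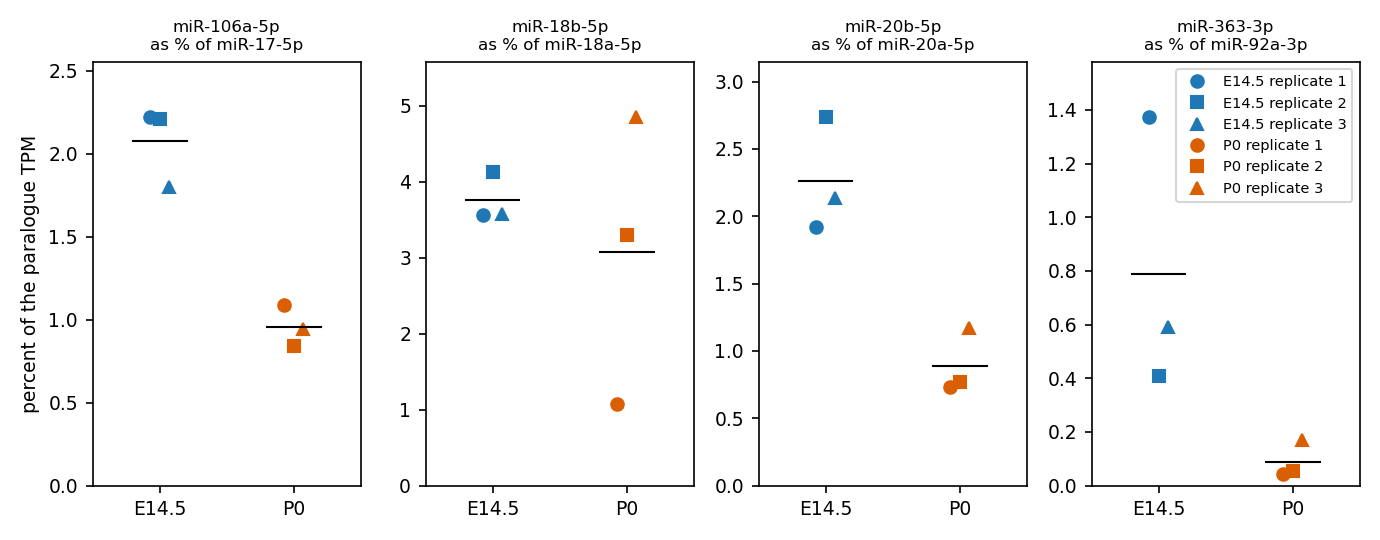
TPM of each member as a percent of the TPM of its relative in miR-17-92, per library, with E14.5 in blue, P0 in orange, marker shape for the replicate, black bars for the mean, and a vertical axis of its own in each panel. The stages are apart for miR-106a-5p, miR-20b-5p and miR-363-3p, while for miR-18b-5p the P0 libraries run from 1.07% to 4.84% and span the E14.5 values.

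The members made up a small part of all reads with the miR-17 seed. RefSeq lists 7 mature mouse miRNAs with this seed, of which 6 were in the table: miR-17-5p, miR-20a-5p, miR-106a-5p, miR-20b-5p, miR-106b-5p and miR-93-5p. miR-106a-5p and miR-20b-5p together took 1.37%, 1.01% and 1.21% of the summed TPM of these 6 in the E14.5 replicates. They took 0.186%, 0.321% and 0.332% in the P0 replicates. The share was 1.20% ± 0.18 for E14.5 and 0.280% ± 0.0816 for P0 (SD, n = 3, exact two-sided permutation p = 0.1, the smallest possible), and it did not overlap between the stages. As a share of reads the 95% Wilson intervals were 0.990 to 1.03 in the lowest E14.5 library and 0.308 to 0.358 in the highest P0 library.

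That pool itself was smaller at P0 in TPM and was led by other clusters. The 6 miRNAs summed to 38972, 33298 and 34547 TPM in the E14.5 replicates and to 27330 (replicate 1), 9488 and 9052 TPM in those of P0. miR-93-5p of the miR-106b-25 cluster took 30.0%, 57.3% and 33.8% of the pool at E14.5 and 77.8%, 60.4% and 64.7% at P0.

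Set beside the members, the related clusters gave these counts. Of the 10 miRNAs listed for miR-17-92 alone, 7 were called lower in TPM and 0 higher, with a median log2 fold change of −2.83. With scaling 2 were called lower and the median was −1.62. Of the 6 listed for miR-106b-25, 2 were called lower in TPM and 0 higher, with a median of −1.07, and after scaling limma called 0 and the median was 0.20. Over all 670 miRNAs tested 32.8% were called lower in TPM and 5.22% after scaling, with medians of −1.20 and −0.17, so the TPM count of miR-106b-25 was near that of all miRNAs. Differences between these lists were not tested, and the counts are not given without P0 replicate 1. In that library miR-93-5p was at 21263 TPM, against 5728 and 5856 in the other P0 libraries. miR-25-3p was at 20287 TPM there, against 6902 and 6605, while miR-25-5p was lowest there.

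The other products of the cluster were examined from the rows of its own locus. Of the opposite arms, miR-18b-3p had 3, 19 and 21 reads in the E14.5 replicates and 0 reads in each P0 library. Its log2 fold change was −1.43 in TPM (adjusted p = 0.0561, limma) and −1.06 after scaling (adjusted p = 0.148, limma), so it was not called. miR-92a-2-5p, the opposite arm of the Mir92-2 hairpin, had 3, 18 and 2 reads at E14.5 and 0 in each P0 library. For both, P0 levels under 0.0863 to 0.140 TPM would not have been seen (3 reads). miR-363-5p had 2.27, 2.97 and 10.6 TPM at E14.5 and 0.546, 1.04 and 0 TPM at P0, and it fell in TPM by 1.86 on the log2 scale with an SE of 0.61 (adjusted p = 0.0356, limma). Its log2 fold change after scaling was −1.16 (adjusted p = 0.204, limma). The opposite arms miR-106a-3p and miR-19b-2-5p were not analysed here.

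**Figure D5:**
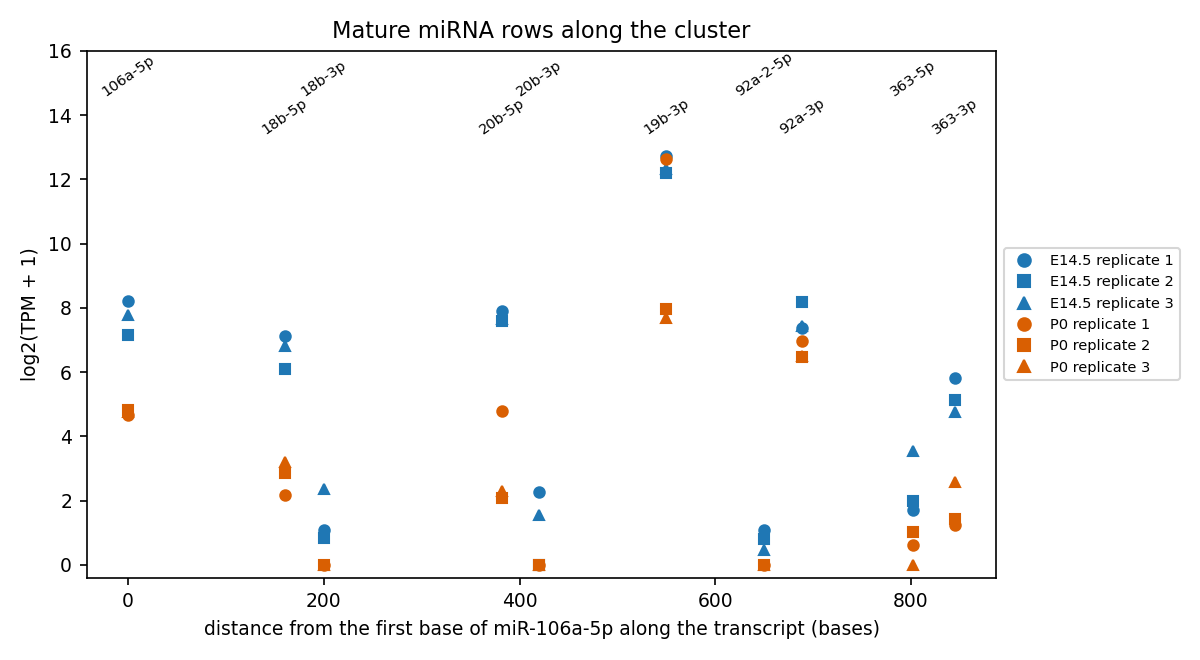
Level of each mature miRNA row of the cluster, as log2(TPM + 1), against the distance in bases from the first base of miR-106a-5p along the transcript, for the 3 E14.5 libraries (blue) and the 3 P0 libraries (orange). miR-19b-3p, whose mature sequence also comes from chromosome 14, is the highest row in each library, and the opposite arms are the lowest at E14.5.

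2 mature miRNAs of the cluster, miR-19b-3p and miR-92a-3p, have the same mature sequence at miR-17-92, and the table holds a row for each place. They differ only in the bases that flank the mature miRNA, which is shown in capitals with 4 bases on each side for miR-92a-3p.
Mir92-1: auggUAUUGCACUUGUCCCGGCCUGuuga
Mir92-2: aaagUAUUGCACUUGUCCCGGCCUGagga
The chromosome X row of miR-92a-3p held 4.06%, 3.46% and 3.90% as many reads as the chromosome 14 row in the E14.5 replicates and 4.05%, 2.76% and 3.08% in the P0 replicates. Its level was 207 ± 70.2 TPM at E14.5 against 101 ± 20.3 TPM (SD, n = 3), a smaller ratio of means than in its neighbour miR-363-3p. How reads were divided between such rows is not given in the sources used here. For miR-19b-3p the 2 rows held nearly equal reads, with the chromosome X row at 99.8% to 100.5% of the other, so its reads do not tell the places apart. The chromosome X row of miR-19b-3p was at 6789, 4733 and 5083 TPM at E14.5 and at 6381, 250.2 and 205.6 TPM in the P0 replicates. Like miR-20b-5p, it was high in P0 replicate 1, and there it lay within the E14.5 range.

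The members were compared with other miRNAs of their chromosome. Of 72 X-linked miRNAs tested, 33 were called lower and 1 higher in TPM, or 45.8% lower against 32.8% of all, with a median of −1.59 on the log2 scale. Without the members 29 of 68 were called lower, with a median of −1.48. On the scaled values the counts were no longer one-sided, with 5 called lower and 5 higher including the members, and 2 lower and 5 higher without them. Over all 670 miRNAs 35 were called lower and 38 higher on that scale, so the X-linked counts were near those of all. The scaled medians were −0.71 with the members and −0.68 without them. All 4 tested members lay below these medians.

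The miRNAs most alike in pattern to the members were found by the correlation of log2(TPM + 1), over the 6 libraries, with the mean of the 4 tested members after each was brought to a common scale. Among 410 other miRNAs at a mean level of 10 TPM or more, these were miR-708-5p (r = 0.995), miR-126a-3p (0.993), miR-380-3p (0.989), miR-181d-5p (0.989) and miR-675-5p (0.988). All points share the 6 libraries and the difference between stages, and 72 of the 410 had r above 0.9. Of the 5, miR-380-3p and miR-675-5p were called lower on both scales, with log2 fold changes in TPM of −3.77 and −3.14. miR-126a-3p is a marker of endothelial cells.

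Among the members themselves, correlations over the 6 libraries ran from 0.858 between miR-20b-5p and miR-363-3p to 0.990 between miR-106a-5p and miR-18b-5p. The 3 lowest of the 6 pairs all involved miR-20b-5p.

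Counts of marker miRNAs of other cell types are read against the 32.8% of all miRNAs called lower in TPM and the 5.22% after scaling. Both endothelial markers were called lower at P0 in TPM, and their sum was 26608 to 44921 TPM at E14.5 and 5634 to 8158 TPM at P0. All 5 epithelial markers of the miR-200 family were called lower, with sums of 4122 to 23183 TPM at E14.5 and 500.2 to 1542 TPM at P0. Of 6 stromal markers 3 were called lower (84962 to 101473 TPM against 33590 to 46336 TPM). Of 5 erythroid markers 1 was called lower (305.5 to 462 TPM against 165 to 336 TPM). Of 4 leukocyte markers limma called 0 in TPM (632 to 1202 TPM against 454 to 629 TPM). After median-of-ratios scaling 1 endothelial and 3 epithelial markers were called lower, and 1 leukocyte marker higher. No marker was at 0 in any library, and the part of these cell types in the members' change was not tested.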

How the data were processed

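Small RNA of 6 libraries (3 E14.5, 3 P0) was analysed from 1 deposited table, whose 1104 lines hold mature miRNAs by position. The authors deposited TPM per library, and the submitters' processing notes name featureCounts, DESeq2 1.26.0 and mm10. Trimming, aligner and use of molecular tags are not given in the sources used here. The table also holds, per the file headers, the authors' baseMean (a normalised signal), log2 fold change, test statistic (a score) and p-value. Their log2 values were read as P0 over E14.5, since their signs follow the TPM. TPM times the end minus the start was a whole multiple of 1 step per library in 100% of values (tolerance 1e-06 reads), which recovers reads. Their size-factor mean equalled baseMean (largest relative difference 4.75e-15).

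For 52 miRNAs with several lines, the one with most reads was used. limma 3.58.1 under R 4.3.3, with its trend option, was fitted to log2(TPM + 1) of 670 miRNAs averaging 1 TPM or more, with stage as the only term, Benjamini-Hochberg adjustment and a threshold of 0.05. Fold changes on this scale understate the change of low miRNAs. Samples were litter pools, so p-values measure the spread between pools. Ratios and shares had exact two-sided permutation tests. Intervals are at 95% and, like the floor of 3 reads, cover counting error only. On simulated data for this comparison the fit recovered 97.9% of 4-fold and 98.9% of 8-fold changes, but 30.8% of its calls in TPM were false (668 miRNAs tested), and 4.62% with the known composition shift removed (695 tested). The simulation gave every miRNA the same spread beyond counting error and held no outlying library such as P0 replicate 1. Its rates need not hold for the real libraries.

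Named miRNAs were the members, the other products of the cluster, products of the 2 related clusters, and the 5 most alike in pattern. Those 5 were sought among the remaining miRNAs averaging 10 TPM or more. The members and lists were chosen with earlier results of these data known. Alternatives were scaling by the median of ratios or the upper quartile, leaving out the most abundant miRNA, limma-voom, filters at 0 and 10 TPM, 0.1 as the pseudocount, sums over lines, the replicate number as a block, and each library left out.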

Additional observations from a re-analysis of the deposited data

How the results depend on the processing

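Over all miRNAs, limma called 229 in TPM, 73 with median-of-ratios scaling, 58 with upper-quartile scaling and 28 with limma-voom on recovered reads. With 1 library left out the count in TPM was 111, 157 and 66 without E14.5 replicates 1, 2 and 3, and 410, 114 and 136 without those of P0. With median-of-ratios scaling, a combination chosen after seeing the data, it was 0, 7 and 0 without the E14.5 replicates and 326, 0 and 2 without those of P0. The limma fits with 0 calls had 136 to 143 miRNAs at an unadjusted p under 0.05. Of the 4 members, 2 were called with upper-quartile scaling and 2 with limma-voom. With 1 library left out 4 were called in TPM, and 0 to 4 with median-of-ratios scaling. The cause was not tested. Deviations of same-numbered libraries from their stage means correlated at 0.193, 0.183 and 0.0423, so the numbers were not taken as pairs. With the replicate block 247 miRNAs and 4 members were called in TPM, and 56 miRNAs and 2 members with median-of-ratios scaling, again chosen after seeing the data. The difference of the log2 ratio of miR-18b-5p to miR-18a-5p ran from −0.73 to 0.26 with 1 library left out, turning positive without P0 replicate 1. The other ratios and the miR-17 seed share kept their direction under the alternatives run. With a pseudocount of 0.1 the arm ratio of Mir20b moved from −3.38 to −1.67, and the difference for miR-18b-5p to miR-18a-5p from −0.31 to −0.52. The 20 reads of miR-20b-3p all came from the shallowest libraries, E14.5 replicates 1 and 3, and the 4 deeper libraries held 0.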
